A study of Mus musculus with 2 samples.

Results

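The 10 genes described here encode tubulins, the proteins of microtubules, and were measured by total RNA sequencing in mouse erythroblasts, which still hold a nucleus and go on to become red blood cells. They were taken by symbol: 5 alpha-tubulin genes (Tuba1a, Tuba1b, Tuba1c, Tuba4a and Tuba8), 4 beta-tubulin genes (Tubb1, Tubb2a, Tubb4b and Tubb5) and the gamma-tubulin gene Tubg1. They are 10 of the 43346 gene rows quantified, and 25 transcripts are listed under them. The study holds 1 group of 2 libraries, named replicate 1 and replicate 2, and no second condition. Per the labels, both come from adult C57BL/6J males of 5 to 6 weeks and are primary cells, with no treatment or allele named, and 1 ng of RNA went into each library with spike-in RNA. The labels give each library its own biosample but the same donor entry, so the spread between them may be technical, and no condition can be tested.

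An alpha and a beta tubulin fold with the help of the chaperonin and of dedicated cofactors, join into a heterodimer and polymerise into microtubules, which grow from rings of gamma tubulin at centrosomes. Erythroblasts use microtubules in the spindles of their last divisions, and the network is taken down as the cells expel the nucleus and mature. The isotypes of each class differ most in their acidic carboxy-terminal tails, which project from the microtubule and carry most of its modifications. Some isotypes are tied to a lineage: beta-1 tubulin, the product of Tubb1, builds the marginal band of platelets.

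The end of the coding sequence shows how far the beta isotypes can be told apart by the bases of their mRNA. The lines give the last 60 coding bases before the stop codon of each beta gene, 5′ to 3′ on the coding strand, from GENCODE M21 transcripts on mm10. Capitals mark bases that differ from Tubb5, the beta gene with the highest level here, or that have no counterpart in it.
Tubb5: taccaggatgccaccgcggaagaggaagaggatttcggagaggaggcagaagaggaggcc
Tubb4b: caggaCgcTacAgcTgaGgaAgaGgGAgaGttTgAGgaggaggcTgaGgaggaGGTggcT
Tubb2a: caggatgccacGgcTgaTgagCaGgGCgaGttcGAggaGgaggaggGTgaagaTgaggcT
Tubb1: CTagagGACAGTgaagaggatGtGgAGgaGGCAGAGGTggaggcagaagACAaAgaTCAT

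The tail differs from that of Tubb5 at 15 of 60 bases in Tubb2a, 19 in Tubb4b and 29 in Tubb1. Such bases made up 25%, 31.7% and 48.3% of these tails, against 14.9%, 17.1% and 25.5% of the rest of the coding sequence. A changed base need not change an amino acid, and the protein tails were not compared. All of these stretches lie in the last coding exon, exon 4 of each gene: chr17:35834985-35835044 on the minus strand for Tubb5, chr2:25222311-25222370 (minus) for Tubb4b, chr13:34074471-34074530 (minus) for Tubb2a and chr2:174457820-174457879 (plus) for Tubb1.

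Over whole coding sequences, Tuba1a and Tuba1b were identical at 98.3% of aligned bases, Tuba1b and Tuba1c at 97.9%, and Tuba1a and Tuba1c at 97.1%. Tuba4a matched Tuba1b at 85.1% and Tuba8 matched it at 79.2%. Tubb2a and Tubb4b matched Tubb5 at 84.6% and 82.2%, and Tubb1, the most divergent beta gene of the list, matched it at 73.4%. The 3 Tuba1 genes lie on chromosome 15 and do not overlap each other: Tuba1b at chr15:98931425-98934565, Tuba1a at chr15:98949837-98953703 and Tuba1c at chr15:99029891-99038110. Tuba1b and Tuba1c share an exact run of 468 coding bases within exon 4, longer than the fragments implied by the deposited effective lengths, 135 bases in replicate 1 and 151 in replicate 2. Fragments from inside that run carry nothing that assigns them to either gene.

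Levels are given as TPM, a transcript abundance that is scaled by length, so that genes can be compared, and then to a fixed total per library. Mitochondrial rRNA took 78.3% and 78.5% of all TPM, and nuclear protein-coding genes took 4.68% in replicate 1 and 5.10% in replicate 2. The level of Tuba1a in replicate 1, 1.00 TPM, became 21.4 when nuclear protein-coding genes alone were rescaled to the same total. The libraries held 80806663 and 117032607 expected counts, of which 5.44% and 5.82% fell on nuclear protein-coding genes. Detection was set at 1 TPM or above in each library. Of the 10 tubulin genes 6 were detected (Tuba1b, Tuba4a, Tubb5, Tubb4b, Tuba1c and Tuba1a), and 14.5% of all 21461 nuclear protein-coding genes were. Tuba1a sat at the threshold itself, and 9 of the 10 had at least 10 expected counts in both libraries. The share of all genes that reach this count was not computed.

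Tuba1b, an alpha tubulin of dividing cells in many tissues, was the highest of the 10. Its level was 38.56 TPM in replicate 1 and 46.94 TPM in replicate 2 (mean 42.8 ± 5.93, SD, n = 2), from 4454 and 7925 expected counts. That placed it at rank 103 and 89 among nuclear protein-coding genes.

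Tuba4a (chr1:75214228-75219865, minus strand), an alpha tubulin whose coding sequence, unlike those of most alpha genes, ends without a tyrosine codon, came next. Its level was 22.61 and 22.56 TPM (22.6 ± 0.0354, n = 2), at rank 198 and 215, and the 2 libraries nearly coincided. Relative to the level, that SD is smaller than the counting error. The expected counts of 2716 and 3861 have counting SDs of 52.1 and 62.1, so the SD understates the error of the level. Tuba4a stood at 0.586 of the Tuba1b level in replicate 1 and 0.481 in replicate 2.

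The beta tubulins began lower. Tubb5 (chr17:35833921-35838306, minus strand), the beta tubulin most widely found in dividing cells, was at 11.94 and 12.74 TPM (12.3 ± 0.566, n = 2). Tubb4b (chr2:25222160-25224702, minus strand), a second widely expressed beta tubulin, was at 9.59 and 8.31 TPM (8.95 ± 0.905, n = 2). In both libraries Tubb5 was above Tubb4b, by 1.25 times in replicate 1 and 1.53 times in replicate 2, and their values did not overlap.

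Tuba1c, the near-copy of Tuba1b, was at 4.23 and 3.66 TPM (3.95 ± 0.403, n = 2). Tuba1a, the alpha tubulin best known from developing neurons, was at 1.00 and 1.42 TPM (1.21 ± 0.297, n = 2), from 108.91 and 225.68 expected counts. Tuba1b was 38.6 and 33.1 times as high as Tuba1a although their coding sequences are nearly the same.

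The remaining 4 genes were below 1 TPM in both libraries. Tuba8 (chr6:121210696-121226854, plus strand), an alpha isotype known from heart, muscle and testis, was at 0.55 and 0.76 TPM from 82.59 and 166.47 counts. Tubg1 (chr11:101119938-101126419, plus strand), the nucleating gamma tubulin, was at 0.60 and 0.29 TPM from 72 and 51 counts. Tubb2a (chr13:34074274-34078007, minus strand), a beta isotype prominent in neurons, was at 0.37 and 0.32 TPM from 39 and 48 counts. Tubb1 (chr2:174450695-174457882, plus strand) had 1 read in replicate 1 and 0 in replicate 2. The count of 0 in replicate 2 allows up to 3 reads, a level of up to 0.0225 TPM, and covers counting error only. In the order of the 10 levels, neighbouring genes overlapped between libraries only for Tuba8 with Tubg1 and Tubg1 with Tubb2a.

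**Figure D1:**
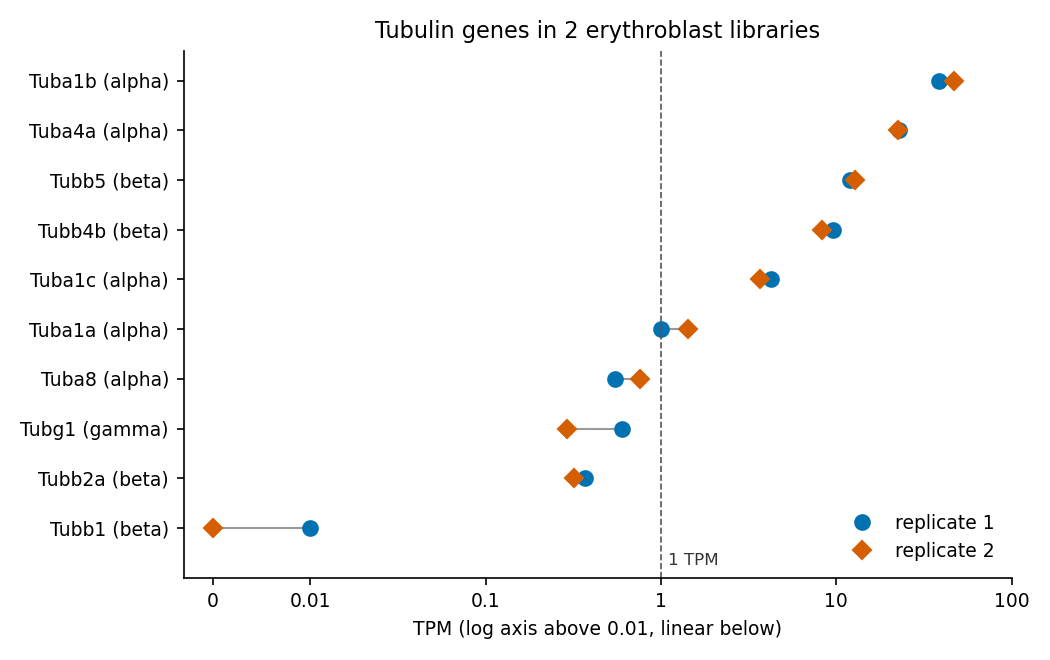
TPM of the 10 tubulin genes in replicate 1 (circles) and replicate 2 (diamonds), ordered by mean, on an axis that is logarithmic above 0.01 and linear below; the dashed line is the detection threshold of 1 TPM. The values run from 46.94 TPM for Tuba1b to 0 for Tubb1, and Tuba1a touches the threshold at 1.00 TPM in replicate 1.

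Summed over the genes of each class, alpha tubulin reached 66.95 and 75.34 TPM (71.1 ± 5.93, n = 2) and beta tubulin 21.91 and 21.37 TPM (21.6 ± 0.382, n = 2). The alpha sum was thus 3.06 times the beta sum in replicate 1 and 3.53 times in replicate 2, a log2 ratio of 1.71 ± 0.15 (SD, n = 2). These are mRNA levels, and the proteins were not measured. By expected counts, with no correction for length, the ratio was 2.55 and 2.80, a log2 ratio of 1.42 ± 0.10. The leading transcript of Tubb5, at 2649 bases, is longer than that of Tuba1b, at 1743 bases, so a Tubb5 molecule yields more reads. The alpha sum was 112 times the Tubg1 level in replicate 1 and 260 times in replicate 2. The 10 genes together took 0.191% and 0.190% of nuclear protein-coding TPM, and the 4 highest of them held 92.4% and 93.4% of that tubulin sum.

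Within the alpha class, Tuba1b held 57.6% of TPM in replicate 1 and 62.3% in replicate 2 (59.9 ± 3.33%, n = 2), and Tuba4a held 33.8% and 29.9% (31.9 ± 2.71%). Tuba1c held 6.32% and 4.86%, Tuba1a 1.49% and 1.88%, and Tuba8 0.822% and 1.01%. The same order held by expected counts, with Tuba1b at 56.2% (95% exact binomial interval 55.1 to 57.3%) and 61.5% (60.6 to 62.3%), and Tuba4a at 34.3% (33.2 to 35.3%) and 30.0% (29.2 to 30.8%). These intervals cover counting error only, since the labels name no molecular identifiers and reads need not be separate molecules. The intervals of the 2 libraries do not overlap for either gene: Tuba1b took the larger share in replicate 2 and Tuba4a in replicate 1.

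Within the beta class, Tubb5 held 54.5% and 59.6% of TPM (57.1 ± 3.62%, n = 2) and Tubb4b 43.8% and 38.9% (41.3 ± 3.45%). Tubb2a held 1.59 ± 0.135% (n = 2), and Tubb1 0.0456% and 0%. The unit mattered more here than among the alpha genes: by expected counts Tubb5 held 66.5% (64.8 to 68.2%) and 71.6% (70.3 to 72.9%), and Tubb4b 32.2% (30.5 to 33.9%) and 27.3% (26.1 to 28.6%). The order was the same in both units and both libraries.

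**Figure D2:**
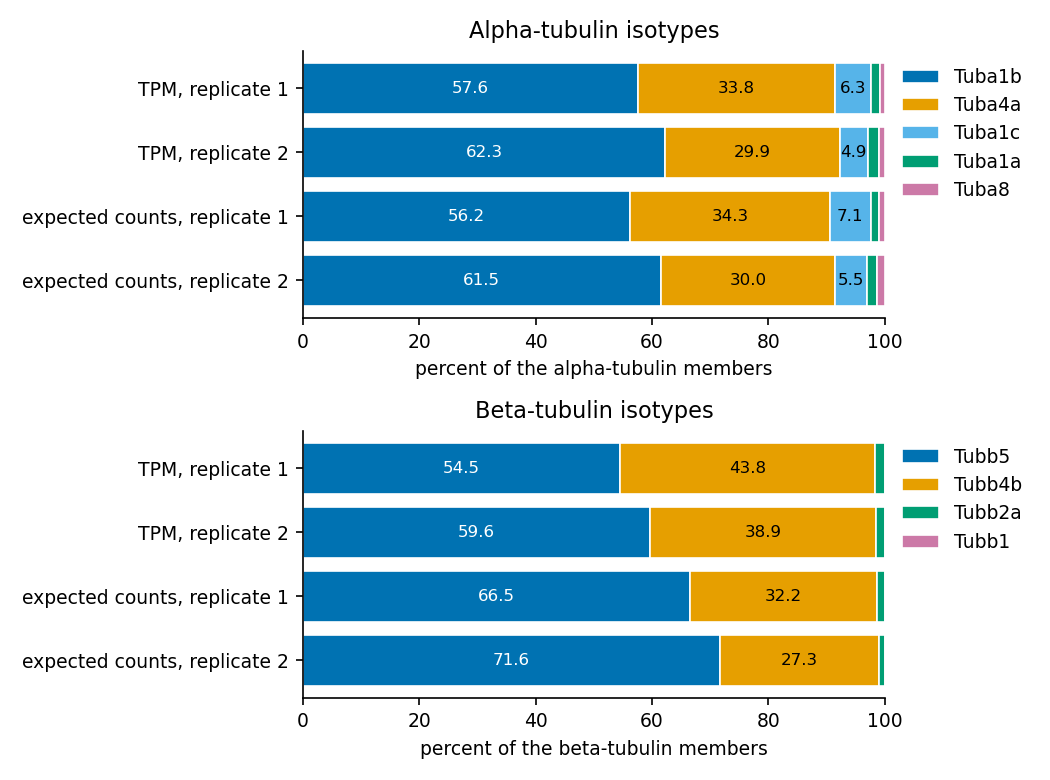
Stacked bars of each isotype as a percent of the alpha members (top) and of the beta members (bottom), by TPM and by expected counts in each library. Tuba1b and Tuba4a fill most of the alpha bars in both units, while the Tubb5 share is wider by expected counts (66.5% and 71.6%) than by TPM (54.5% and 59.6%).

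Shares of near-identical genes depend on how reads that match several of them were divided. Every stretch of 100 bases of each leading transcript was looked up, on either strand, in the GENCODE M21 transcripts of the other quantified genes. Quantified genes that are missing from that release were not searched. Of these windows, 65.6% were shared for Tuba1b, 53.4% for Tuba1c and 50% for Tuba1a, with each other and with processed pseudogenes, and for Tuba1b and Tuba1a a few also with Slc7a11. Tuba1b and Tuba1c had 799 windows in common, and Tuba1b and Tuba1a had 448. The pseudogenes Gm17383 and Gm14150 received 24.95 and 17.87 expected counts in replicate 1 and 22.91 and 23.58 in replicate 2, beside 4454 and 7925 for Tuba1b but only 108.91 and 225.68 for Tuba1a, which shared 32.1% of its windows with Gm17383. No window of Tubb5 or Tubb1 occurred in another gene searched, and the Tubb5 counts of 2071 and 3301 reads had a deposited posterior SD of 0.

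The deposited posterior SD, which measures how firmly the authors' quantification placed the reads, differed between the copies. For Tuba1b it was 18.1 and 22.5 reads, below the counting SD of 66.7 and 89.0. For Tuba1c it was 18.9 and 24.9 reads beside a counting SD of 23.7 and 26.6. For Tuba1a it was 10.3 and 15.4 reads beside 10.4 and 15.0, or 9.48% and 6.81% of its count, the widest of the 10 genes. The assignment of reads and their counting thus had errors of like size for Tuba1a, while for Tuba1b the counting error was the larger. Summed, the 3 Tuba1 genes held 67.2 ± 2.57% of alpha TPM (n = 2) and 64.7% and 68.8% of alpha counts, a sum of counts that is the same however reads were split among the 3.

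GENCODE M21 also places Gm49450, a protein-coding gene on the same strand, over 2429 bases of Tuba1b and 3715 bases of Tuba1a. A transcript that GENCODE M21 gives to Gm49450 is listed under Tuba1a and had 0 counts in both libraries. Gm49450 was not quantified as a gene of its own, so its reads could not be counted. The window lookup left it out for the same reason. Other members overlap or resemble genes outside the family. Of the Tuba4a windows 27.0% lie in Stk16, a kinase gene that overlaps the Tuba4a gene by 1379 bases on the opposite strand, and Stk16 was at 2.49 and 4.02 TPM. Whether counting used strand is not given in the sources used here, so reads of the overlap may belong to either gene. The deposited posterior SD of the Tuba4a gene was 1.91 and 0.60 reads, so the quantification gave reads to this gene with little ambiguity. The split among Tuba4a transcripts, given below, was less firm. Tuba8 shared 12.5% of windows with the antisense gene Gm15856, which had 5.41 and 1.53 counts. Tubb2a shared 35.9% with Tubb2b, which had 0 counts in both libraries. Tubb4b shared 30.6%, mostly with the processed pseudogene Tubb4b-ps1, which had 0 and 2.59 counts. Tubg1 shared 4.11% with Tubg2, which had 0 counts.

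**Figure D3:**
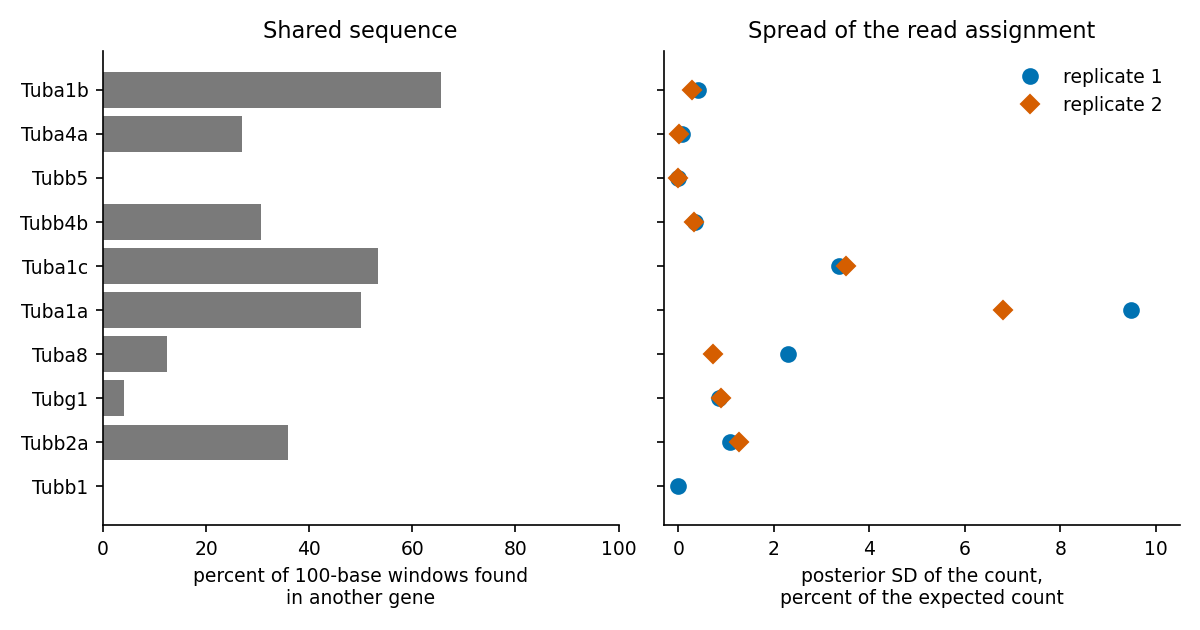
Left, percent of the 100-base windows of each member's leading transcript that also occur, on either strand, in another quantified gene found in GENCODE M21. Right, the deposited posterior SD as a percent of the expected count in replicate 1 (circles) and replicate 2 (diamonds). Tuba1b shares most (65.6%) yet has a posterior SD of 0.405% and 0.284%, while Tuba1a shares 50% and has 9.48% and 6.81%; Tubb1 had no reads in replicate 2 and has 1 point.

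In most members a single transcript carried the gene. The leading transcript held 100% of TPM for Tuba1a, Tuba1c, Tuba8, Tubb2a and Tubg1 in both libraries, at least 99.7% for Tuba1b, 98.2 ± 0.342% for Tubb4b and 95.8 ± 1.91% for Tubb5 (n = 2 each). Of the 25 listed transcripts, 17 had counts in replicate 1 and 14 in replicate 2. Transcripts annotated as retaining an intron made up 5.59% and 5.56% of the tubulin TPM, and most of this was Tuba4a.

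Tuba4a was the exception, with 8 listed transcripts of which 3 had counts. Tuba4a-201, a transcript of coding type with 4 exons whose annotated coding sequence lacks its start, held 77.9% and 74.8% of its TPM (76.4 ± 2.17%, n = 2). Tuba4a-205, annotated as a retained intron, held 18.9% and 22.5% (20.7 ± 2.57%), from 208.86 and 357.87 expected counts. Tuba4a-204 held 3.23% and 2.66%. Deposited posterior SDs were 27.1 and 18.2 reads for Tuba4a-201, 11.7 and 12 for Tuba4a-205 and 13.8 and 8.59 for Tuba4a-204. They were wider than the 1.91 and 0.60 reads of the whole gene. Because Tuba4a-205 is short, at 815 bases, it held only 7.69% and 9.27% of the gene's expected counts.

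Tuba4a-205 keeps intron 3 of the gene, 233 bases at chr1:75216594-75216826 on the minus strand, and stops inside the next exon. The line gives 40 bases across the start of that intron (chr1:75216807-75216846), with its first 6 bases in capitals, since reads that run across this junction, like reads inside the intron or across its other end, set the retained form apart from the spliced one.
Tuba4a-205: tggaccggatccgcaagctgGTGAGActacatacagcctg

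The listed models also differ at their ends, which bears on the split. Tuba4a-201 starts in an exon of 89 bases at chr1:75218536-75218624, while Tuba4a-205 starts in an upstream exon of 51 bases at chr1:75219193-75219243. Tuba4a-202, which starts in that same upstream exon and holds the complete coding sequence, had 0 counts in both libraries. The deposited posterior SD of this 0 was 20.7 and 8.22 reads for Tuba4a-202. Its model runs 744 bases further at the 3′ end than Tuba4a-201, and 0 of the 8 models join the upstream exon to the 3′ end of Tuba4a-201. Reads over the upstream exon could thus be given only to models that also carry intron 3 or the longer 3′ end. Molecules that join the upstream exon to the 3′ end of Tuba4a-201 have no model, so their other reads could be given to Tuba4a-201. Whether the Tuba4a-201 share holds such molecules was not tested. How much of the Tuba4a-205 share comes from reads of intron 3 and how much from the upstream exon was not tested, since no reads by position were available. From which RNA molecules any reads of intron 3 came was not tested either.

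**Figure D4:**
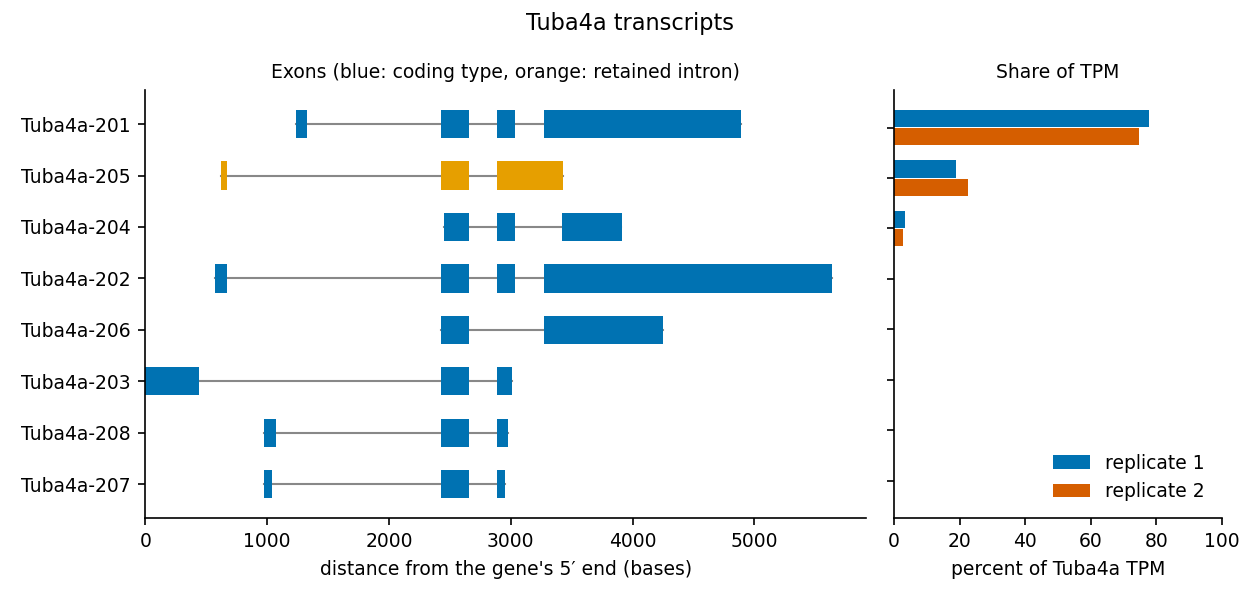
Left, exons (boxes) and introns (lines) of the 8 Tuba4a transcripts by distance from the gene's 5′ end in bases, with coding types in blue and the retained-intron type in orange; right, percent of Tuba4a TPM per transcript in replicate 1 (blue) and replicate 2 (vermilion). Tuba4a-201 holds 77.9% and 74.8% and Tuba4a-205 holds 18.9% and 22.5%; the lower 5 transcripts had 0 counts.

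The spread between the 2 libraries was read from counts scaled by the trimmed mean of M-values, as log2 of replicate 2 over replicate 1. Of the 9 members that passed the filter on low counts, 1 lay beyond 1.5 times in either direction, Tubg1, beside 36.5% of the 10012 genes kept. Tubg1 was lower in replicate 2 by a log2 ratio of -1.11, also beyond 2 times, as 17.1% of genes were. It rests on 72 and 51 reads, with counting SDs of 8.49 and 7.14. The 4 highest members stayed inside 1.5 times, with log2 ratios of 0.18 for Tuba1b, -0.14 for Tuba4a, 0.03 for Tubb5 and -0.32 for Tubb4b. Tuba1a at 0.40, Tuba8 at 0.35, Tuba1c at -0.31 and Tubb2a at -0.33 also stayed inside 1.5 times. Many genes of the background have fewer reads than the leading tubulins, so its share is not matched for level.

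The other tubulin genes stayed below 1 TPM, a level that 14.5% of all nuclear protein-coding genes reached in both libraries. None of the 10 listed was detected: Tubd1, the delta tubulin, was at 0.42 and 0.04 TPM, Tube1, the epsilon tubulin, at 0.22 and 0.22, Tubb6 at 0.11 and 0.06, and Tubb3, the neuronal beta isotype, at 0 and 0.07. The remaining 6 (Tubg2, Tubal3, Tubb2b, Tubb4a, Tuba3a and Tuba3b) were listed at 0 TPM in both libraries.

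Of the 10 listed genes that nucleate microtubules with Tubg1, 2 were detected (20%), near the 14.5% of all nuclear protein-coding genes: Mzt1, a small ring-complex subunit, at 1.62 and 2.52 TPM, and Tubgcp3, a core subunit, at 1.21 and 1.15 TPM. Tubgcp4 was at 1.45 and 0.93 TPM and Tubgcp6 at 0.56 and 0.69, and Tubgcp5 was the lowest at 0.13 and 0.06. The list median was 0.40 and 0.51 TPM, against 0.03 and 0.02 TPM for all nuclear protein-coding genes.

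Genes that fold tubulin were higher. The chaperonin and prefoldin list had 71.4% of its genes detected and the folding cofactor list 62.5%, beside 14.5% of all nuclear protein-coding genes. The chaperonin and prefoldin list had 10 of 14 detected and a median of 3.29 and 4.15 TPM, with the chaperonin subunits Cct3 at 4.66 and 9.30 TPM and Tcp1 at 4.54 and 5.08, and the prefoldin subunits Vbp1 at 6.55 and 6.00 and Pfdn5 at 3.41 and 6.82. Its lowest gene was Pfdn2 at 0.25 and 0.38 TPM. The list of folding cofactors and autoregulation had 5 of 8 detected and a median of 1.80 and 3.17 TPM. Tbcel, a relative of cofactor E that destabilises tubulin, stood out in that list at 17.60 and 19.31 TPM, near the level of Tuba4a. The cofactors Tbcd, Tbce and Tbca were at 2.98 and 4.64, 2.40 and 4.95, and 1.85 and 4.34 TPM. Ttc5, which triggers decay of tubulin mRNA at ribosomes when free tubulin is in excess, was the lowest at 0.22 and 0.03 TPM.

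Of the genes that modify tubulin, 1 of 13 was detected (7.69%), beside 14.5% of all nuclear protein-coding genes, and the list median was 0.38 and 0.25 TPM, beside 0.03 and 0.02 TPM. The detected gene was Svbp, the partner of the vasohibins that remove the terminal tyrosine, at 1.36 ± 0.438 TPM (n = 2), while both vasohibin genes, Vash1 and Vash2, had 0 counts. Agtpbp1, which trims glutamates, was at 0.69 and 1.30 TPM, Sirt2, a deacetylase, at 0.99 and 0.91, and Ttll12 at 0.48 and 0.84.

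Microtubule regulators had 5 of 14 detected (35.7%), beside 14.5% of all nuclear protein-coding genes. Stmn1, stathmin, which binds tubulin dimers and promotes disassembly, led at 9.94 and 11.02 TPM. The plus-end proteins Mapre1 and Mapre2 were at 1.94 and 4.86 and at 1.84 and 2.09 TPM, the severing enzyme Katna1 at 1.86 and 2.37, and the severing enzyme Fign at 0 and 0. Spindle genes had 9 of 14 detected (64.3%, beside the same 14.5%) and a median of 1.28 and 1.38 TPM. Nusap1, which bundles spindle microtubules, was at 5.32 and 6.08 TPM, Prc1, the midzone bundler, at 2.92 and 3.46, the motor Kif11 at 2.95 and 3.13, and Tpx2, a nucleation factor, at 2.10 and 2.07. Kifc1 was the lowest at 0.84 and 0.26 TPM. Over the 7 lists, 32 of 83 genes were detected, beside 14.5% of all nuclear protein-coding genes. At least 10 expected counts in both libraries were held by 64 of the 83, and the share of all genes at that cut was not computed.

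**Figure D5:**
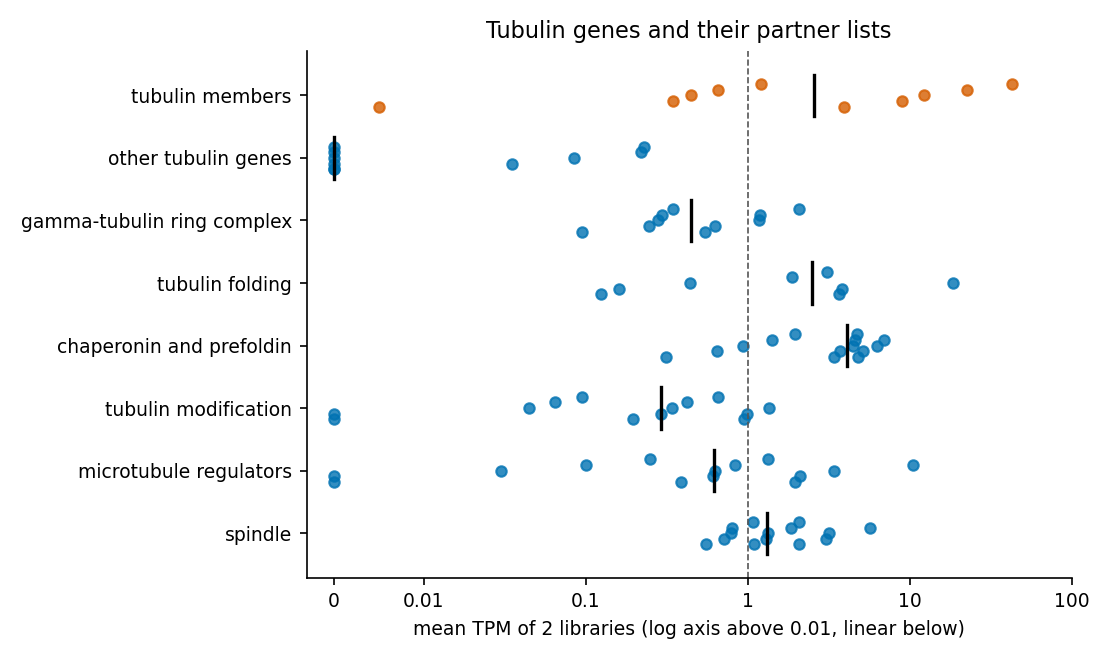
Mean TPM over 2 libraries of the tubulin members (orange) and of the genes of each partner list (blue), on an axis that is logarithmic above 0.01 and linear below; black bars are the medians of these means and the dashed line marks 1 TPM. Tuba1b and Tuba4a lie to the right of all partner genes, and Tbcel at 17.60 and 19.31 TPM is the partner closest to them. The other tubulin genes lie between 0 and a mean of 0.23 TPM, that of Tubd1.

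Marker lists were used to check the labelled cell type. Their counts of detected genes stand beside 14.5% of all nuclear protein-coding genes. All 13 erythroid markers were detected, with a summed level of 21253 and 22982 TPM. The globin genes led, with Hbb-bs at 6817 and 7804 TPM, Hba-a2 at 7156 and 7447, Hbb-bt at 3416 and 3805 and Hba-a1 at 3057 and 3094. These globin genes carried most of that sum. Slc4a1, the next marker of the list, was at 260 and 259 TPM, and the list median was 139 and 139 TPM. All 12 neutrophil-lineage markers were detected as well, with a summed level of 2038 and 2344 TPM, led by S100a9 at 664 and 831 TPM and S100a8 at 615 and 740, then Ngp and Lcn2. The neutrophil list median was 69.3 and 74.0 TPM, and S100a9 and S100a8 stood above every erythroid marker except the globin genes. Of the monocyte list 8 of 10 were detected (81.4 and 101 TPM summed, led by Ly6c2), of the mast cell, basophil and eosinophil list 5 of 6 (38.9 and 34.1 TPM, led by Mcpt8) and of the lymphoid list 2 of 10 (17.6 and 19.8 TPM, led by Ighm). The part of these other cells in the tubulin levels was not tested. In bulk RNA, fewer cells of a type and less RNA per cell cannot be told apart.

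Megakaryocyte and platelet markers bear on Tubb1, since that lineage is its known home. Of 14 listed, 1 was detected (7.14%), beside 14.5% of all nuclear protein-coding genes. It was Itga2b at 1.13 and 2.97 TPM, and the list summed to 4.88 and 6.10 TPM. The list median was 0.165 and 0.11 TPM, against 0.03 and 0.02 TPM for all nuclear protein-coding genes. At least 10 expected counts in both libraries were held by 7 of the 14, and the share of all genes at that cut was not computed. Pf4 was at 1.20 and 0.95 TPM, Vwf at 0.77 and 0.87 and Ppbp at 0.49 and 0.56. Treml1 and Gp6 had 0 counts in both libraries, and 2 of the 14 had 0 counts in replicate 1 and 6 in replicate 2.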

How the data were processed

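Total RNA of 2 erythroblast libraries was analysed from tables per gene and per transcript. Per the deposited read-me, these were quantified on mm10 with GENCODE M4; which aligner, quantifier and strand setting made them is not given in the sources used here. Expected counts, as deposited, are estimates that divide a read among the places it matches, and they were rounded for the library ratio. For TPM the authors scaled every row of a table together, mitochondrial rRNA and spike-ins included. The deposited FPKM values and the posterior mean TPM, a score deposited beside TPM, were alternatives. The deposited percent of gene TPM per transcript differed from shares computed here by at most 0.0518 percentage points. Posterior SDs of counts are the authors' own.

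Symbols, types and coordinates came from GENCODE M21 on the same build, matched by Ensembl identifier without version for 42462 of 43346 rows, and all 10 members matched. Leading transcripts have the same length in both releases for 6 of the 10. Coding identity came from global alignment of M21 coding sequences with biopython 1.88; nucleotides replaced the planned protein comparison, and Tuba4a-202 stood in for Tuba4a-201, whose annotated coding sequence lacks its start. Library ratios used edgeR 4.0.16 (TMM factors 0.962 and 1.04, prior count 2, its expression filter), tested on simulated counts, with DESeq2 1.42.0 size factors as an alternative.

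The members and lists were chosen with earlier results of these data known. All 10 members, the 4 highest and the lowest gene of each partner list, 1 or more leading genes of each marker list and Tuba4a transcripts with 10% or more of the gene are named; the leading transcripts of the other members are given by gene, and the lowest and some other genes of the marker lists are given as counts only. Other genes are named where they overlap or share sequence with a member. No p-value is given, since 1 group cannot be tested. Tail sequences of the alpha genes are not reported here.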

Additional observations from a re-analysis of the deposited data

How the results depend on the processing

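The alpha to beta log2 ratio was 1.42 by expected counts, against 1.71 by TPM, and lay between 1.61 and 1.82 in single libraries; under the other 7 settings it stayed within 1 SD of its value. Those 7 include the sum with the processed pseudogenes that share windows, a setting chosen after seeing the data. The tubulin percent of nuclear protein-coding TPM was 0.186 by posterior mean TPM and 0.255 by expected counts, against 0.191, and 0.190 to 0.191 in single libraries. Of the 10 members, 6 were detected in either library alone, 5 by FPKM, where Tuba1a fell under the threshold, 4 at a TPM of 5, 7 at 0.5, and 9 by at least 10 counts or by TPM rescaled to nuclear protein-coding genes, the last chosen after seeing the data. For the partner lists, at least 10 counts gave 64 genes in place of 32. The shares of all genes under these other detection settings were not computed. Members beyond 1.5 times between libraries were 2 of 10 with no filter on low counts, where Tubb1 joined Tubg1 on 1 read (54.1% of all genes were then beyond it), and 1 under the other settings (42.4% of all genes by deposited TPM). Ratios of deposited TPM moved the median of all genes by 0.109 on the log2 scale. Of 48 isotype and transcript shares recomputed under another unit, estimate or transcript set, 36 stayed within 1 SD and 12 did not; with coding transcripts alone Tuba1b held 64.1% and Tuba4a 27.1% of the alpha class. Windows of 50 bases, added after seeing the data, raised the shared part of Tubb4b to 55.5% and left Tubb5 at 0.115%. No paired analysis was possible because there is only 1 group. Depth limits Tubb1, Tubb2a and Tubg1 most.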
